A study of Sus scrofa with 6 samples.

Results

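The insulin-like growth factor (IGF) system was examined in the longissimus dorsi, a skeletal muscle along the spine, of 3 UCP1-KI pigs and 3 WT pigs, all 6 months old. The UCP1-KI pigs carried an adipocyte-specific knock-in of *UCP1*, the uncoupling protein of brown fat thermogenesis, and the WT pigs carried none; the promoter driving the knock-in and the sex of the pigs are not given in the sources used here. The genes of interest were 9 members of the system taken by pig Ensembl symbol, namely the ligand gene *IGF2*, its repressor *ZBED6*, the receptors *IGF1R* and *IGF2R*, and the binding proteins *IGFBP3* to *IGFBP7*. Of these, 6 were found by symbol in the table of read counts of 30476 genes, and all 6 passed the filter on low counts. Below, a gene in the table is one found there by symbol. A table of Ensembl names gave a symbol to 14864 of the 30476 genes, with no entry for *IGF2* or *IGFBP3*. Reads on both could therefore stand in the counts under an identifier without a symbol. *ZBED6* had 1 identifier among the names, which the counts did not hold. *IGF2*, *IGFBP3* and *ZBED6* were not analysed here. The results therefore cover *IGF1R*, *IGF2R*, *IGFBP4*, *IGFBP5*, *IGFBP6* and *IGFBP7*. *UCP1* had no identifier under its symbol either, so its counts were not looked up. The authors report that their RNA-seq detected no *UCP1* mRNA in the muscle of either group. Its counts in this tissue would therefore not check the genotype. The labels number the samples as replicates without saying that they come from separate animals. Each sample is treated here as 1 pig, and every SD and p-value below rests on that.

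IGF1 and IGF2 are secreted growth factors that act on muscle growth, myoblast differentiation and repair through the IGF1 receptor, a tyrosine kinase. The IGF2 receptor, also known as the cation-independent mannose 6-phosphate receptor, takes IGF2 up for breakdown in lysosomes and also carries lysosomal enzymes. The binding proteins hold IGFs in the circulation and in the tissue matrix, and proteases that cut them set the ligands free. In pigs the system is known for an intronic substitution in *IGF2* that removes a site bound by the repressor ZBED6 and raises *IGF2* transcription in muscle, with effects on lean growth.

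Counts on genes summed to between 30220951 and 35066624 per pig. Counts were expressed as CPM, that is scaled to a common library size, with TMM factors, the lowest 0.781 (WT replicate 2) and the highest 1.18 (UCP1-KI replicate 2). CPM is not corrected for transcript length, so levels are compared between pigs and not between genes. The labelled tissue was checked with a list of 12 skeletal muscle genes, of which 6 were in the table, *ACTA1* and *CKM* among them. Their summed level was 55886 to 103545 CPM with the knock-in and 79990 to 123269 CPM without it. A gene was called when edgeR's quasi-likelihood test gave an unadjusted p under 0.05 with a log2 fold change, UCP1-KI against WT, beyond 0.5 in size. This rule called 1097 of 13402 genes tested (8.19%), with 3.84% higher and 4.34% lower in UCP1-KI pigs. After Benjamini-Hochberg adjustment edgeR called 0 genes (0%), where 1100 genes (8.21%) had an unadjusted p under 0.05, and DESeq2 on the same genes called 127. With library size as the only scaling, the median over all genes tested of the log2 fold change moved from -0.015 to 0.24, and 82.7% of the called genes were higher in place of 46.9%.

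Of the 6 genes, 1 was called, *IGFBP7*, which was lower in UCP1-KI pigs, and 0 had an adjusted p under 0.05 with edgeR or with DESeq2. The share of 1 in 6 stands beside the 8.19% called among all genes, and is too few genes to set apart from it. *IGFBP5* and *IGFBP6* had lower means in UCP1-KI pigs, and *IGF1R* and *IGF2R* had higher means, without passing edgeR's test. The median log2 fold change of the 6 genes was -0.40, against -0.015 over all genes tested. None of the 6 genes separated the groups completely, whereas 15.3% of all genes tested did, 7.59% with UCP1-KI pigs higher and 7.69% with UCP1-KI pigs lower.

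*IGF1R* (ENSSSCG00000030560) lies at chr1:137383623-137691038 in the RefSeq annotation of Sscrofa11.1, the build that the submitters' processing notes name. It encodes the tyrosine kinase receptor through which both ligands signal. Its level was 4.50, 6.17 and 2.94 CPM in UCP1-KI replicates 1 to 3 and 5.79, 2.12 and 3.24 CPM in WT replicates 1 to 3. The highest pig was UCP1-KI replicate 2 and the lowest WT replicate 2, with the other pigs of both groups interleaved between them. The UCP1-KI mean was 4.54 ± 1.62 CPM against a WT mean of 3.71 ± 1.88 CPM (SD, n = 3 each). The log2 fold change of 0.28 had a standard error of 0.45 and a 95% interval from -0.76 to 1.33, which holds changes of either direction. edgeR gave an unadjusted p of 0.547 and an adjusted p of 0.882 for this gene. Without UCP1-KI replicate 2 its value was -0.0097. *IGF1R* was the gene of the 6 with the fewest reads, 58 to 220 per pig, and at 58 reads counting alone gives a coefficient of variation of 13.1%. The coefficients of variation between pigs were 35.6% within the UCP1-KI group and 50.6% within the WT group.

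*IGF2R* (ENSSSCG00000004044, chr1:7369485-7472480), the receptor that clears IGF2, was measured at 31.0, 49.0 and 64.2 CPM in UCP1-KI replicates 1 to 3. WT replicates 1 to 3 were at 43.9, 27.4 and 41.6 CPM. Thus 2 UCP1-KI pigs lay above all WT pigs, and UCP1-KI replicate 1 lay within the WT range. On average, UCP1-KI pigs were at 48.1 ± 16.6 CPM against a WT mean of 37.7 ± 8.94 CPM (SD, n = 3 each). The log2 fold change of 0.35 had a standard error of 0.33 and a 95% interval from -0.41 to 1.11, where edgeR's adjusted p was 0.783. When any 1 pig was dropped the value stayed between 0.083 and 0.59.

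The balance of both receptors was also compared within each pig, since a ratio of 2 genes from 1 library does not depend on scaling. For each read on *IGF1R* there were 6.89, 7.95 and 21.8 reads on *IGF2R* in UCP1-KI replicates 1 to 3, and 7.59, 12.9 and 12.9 reads in WT replicates 1 to 3. The ratio ranged more widely in UCP1-KI pigs, where replicate 3 had both the lowest *IGF1R* and the highest *IGF2R* level of its group. On the log2 scale the mean ratio was 3.40 ± 0.906 with the knock-in against 3.43 ± 0.438 without it (SD, n = 3 each, two-sided exact permutation test, p = 1). With 3 pigs against 3, this test cannot give a p below 0.1.

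*IGFBP7* (ENSSSCG00000008913, chr8:56283089-56357822) encodes a secreted protein of vessels and matrix that binds IGFs with low affinity compared with the classical binding proteins. Its level was 169.7, 145 and 139.8 CPM in UCP1-KI replicates 1 to 3. In WT replicates 1 to 3 it was 311, 339 and 162 CPM. The UCP1-KI pigs lay close together, WT replicates 1 and 2 were well above them, and WT replicate 3 fell between UCP1-KI replicates 1 and 2. The UCP1-KI mean was 152 ± 15.9 CPM against a WT mean of 271 ± 95.2 CPM (SD, n = 3 each), and the fitted level was 1.79-fold lower in UCP1-KI pigs. On the log2 scale the difference was -0.84 and had a standard error of 0.32 and a 95% interval from -1.59 to -0.08. It had an unadjusted p of 0.0335 and an adjusted p of 0.592 in edgeR. *IGFBP7* was called without WT replicate 3, at -1.10, and was not called when any of the other 5 pigs was left out, where the log2 fold change lay between -0.92 and -0.64. With library size only it was at -0.59 and was not called, a value that lies 0.83 below the median of all genes in that setting. In whole muscle, fewer cells of a type and less RNA per cell cannot be told apart, for this gene and for those that follow.

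**Figure D1:**
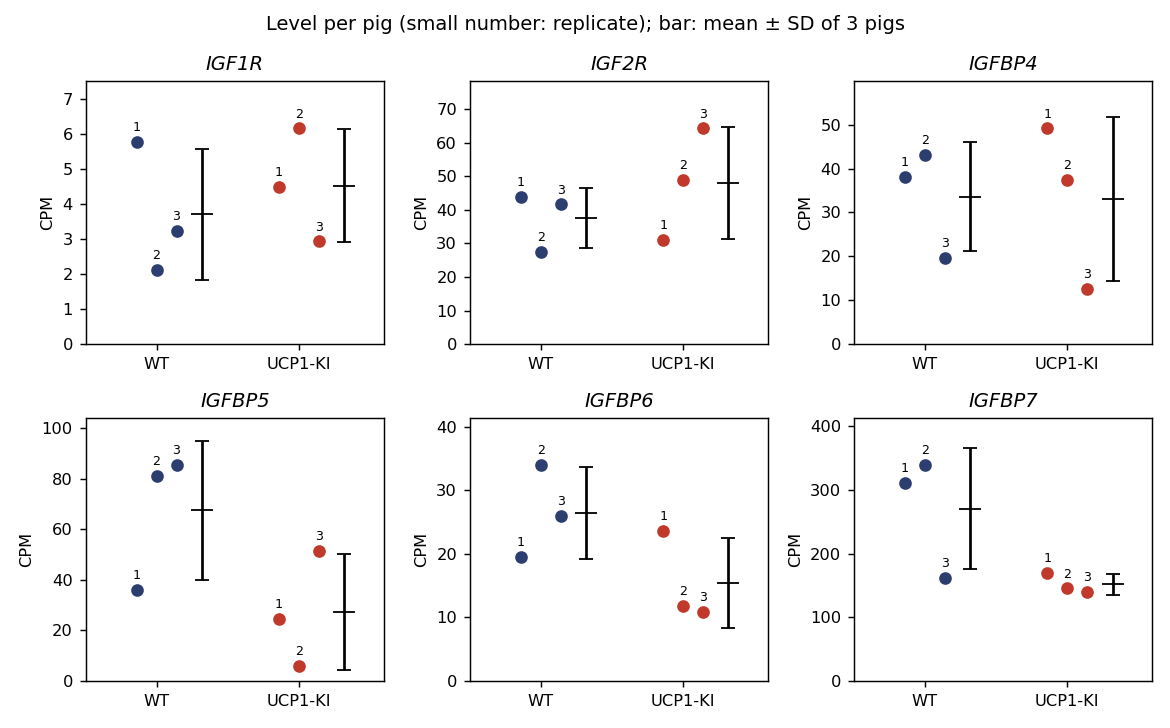
Level in CPM of the 6 genes in each pig, with WT pigs in blue, UCP1-KI pigs in red, the replicate number above each point and the mean ± SD of 3 pigs beside them. The 3 UCP1-KI pigs of *IGFBP7* sit between 139.8 and 169.7 CPM while WT pigs spread from 162 to 339 CPM, and the groups overlap in all 6 panels.

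*IGFBP5* (ENSSSCG00000025924, chr15:118861816-118877787) encodes a binding protein that attaches to extracellular matrix and is made by differentiating myoblasts. It was measured at 24.4, 5.89 and 51.4 CPM in UCP1-KI replicates 1 to 3, and at 35.9, 81.1 and 85.4 CPM in WT replicates 1 to 3. UCP1-KI replicates 1 and 2 lay below all WT pigs, whereas UCP1-KI replicate 3 lay above WT replicate 1. The range within the UCP1-KI group was 8.73-fold and that within the WT group 2.38-fold. The average of UCP1-KI pigs was 27.2 ± 22.9 CPM against a WT mean of 67.5 ± 27.4 CPM (SD, n = 3 each). Its log2 fold change of -1.31 was the largest in size of the 6 genes, but its standard error of 0.70 was also the largest, with a 95% interval from -2.94 to 0.32. Its unadjusted p in edgeR was 0.10 and its adjusted p 0.653. Dropping UCP1-KI replicate 3 moved it to -2.14, where edgeR gave an unadjusted p of 0.0184 and *IGFBP5* was called. Dropping UCP1-KI replicate 2 moved it to -0.85, where it was not called. DESeq2 on the same genes called it at -1.32, with an unadjusted p of 0.0495 and an adjusted p of 0.504.

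The within-group SD of *IGFBP5* on the log2(CPM + 1) scale was 1.16, larger than that of 97.6% of the genes tested, whose median was 0.33. That of *IGFBP4* was 0.82, at the 92.8th percentile, and the other 4 genes lay between 0.42 and 0.50. Each of the 6 genes thus varied more within its group than the median gene. The fewest reads on *IGFBP5* in a pig were 210, where counting alone gives a coefficient of variation of 6.90%. Between pigs the coefficient of variation of its CPM was 84.1% in the UCP1-KI group and 40.7% in the WT group.

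*IGFBP2*, another binding protein gene, lies next to *IGFBP5* on chromosome 15, with a gap of 10.8 kb and 0 annotated genes between them. Its level was 18.8 ± 3.55 CPM with the knock-in against 19.2 ± 8.84 CPM without it (SD, n = 3 each). This was a log2 difference of -0.032 with a standard error of 0.35, which turned to 0.27 with library size only. The difference between both neighbours was not tested.

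*IGFBP6* (ENSSSCG00000000261, chr5:18352884-18357225) encodes the binding protein that prefers IGF2 over IGF1. Its level was 23.6, 11.8 and 10.8 CPM in UCP1-KI replicates 1 to 3 and 19.5, 34.0 and 26.0 CPM in WT replicates 1 to 3. All UCP1-KI pigs lay below the WT mean, but UCP1-KI replicate 1 was above WT replicate 1. The UCP1-KI mean was 15.4 ± 7.14 CPM against a WT mean of 26.5 ± 7.26 CPM (SD, n = 3 each). Its log2 fold change of -0.78 had a standard error of 0.37 and a 95% interval from -1.65 to 0.09. edgeR gave an unadjusted p of 0.0710 and an adjusted p of 0.630. Dropping UCP1-KI replicate 1 moved it to -1.22, where edgeR gave an unadjusted p of 0.00902 and the gene was called.

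*IGFBP4* (ENSSSCG00000017472, chr12:21966524-21980043) encodes a binding protein that restrains IGF action until the protease PAPP-A cuts it. Its level was 49.1, 37.4 and 12.5 CPM in UCP1-KI replicates 1 to 3. WT replicates 1 to 3 were at 38.1, 43.1 and 19.6 CPM. UCP1-KI pigs held both the highest and the lowest level, and replicate 3 was the lowest pig of each group. On average, UCP1-KI pigs were at 33.0 ± 18.7 CPM against a WT mean of 33.6 ± 12.4 CPM (SD, n = 3 each). Its log2 fold change of -0.03 had a standard error of 0.51 and a 95% interval from -1.21 to 1.16, so the sign of the difference was not resolved in these pigs. edgeR's adjusted p was 0.991. The sign turned with library size only, to 0.19.

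**Figure D2:**
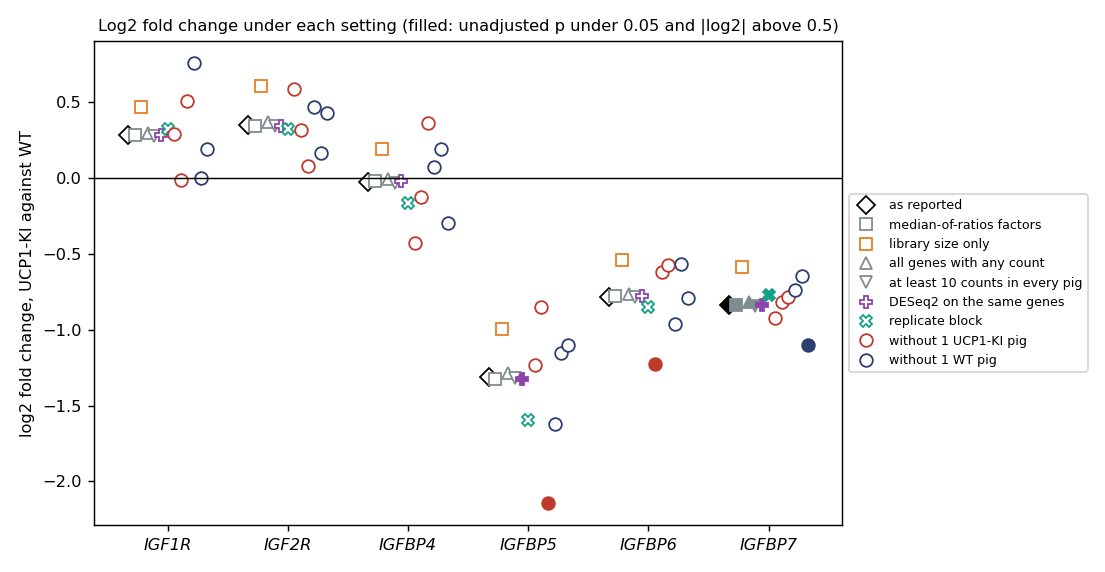
Log2 fold change of the 6 genes, UCP1-KI against WT, as reported (diamond) and under each other setting, with circles for fits that leave out 1 UCP1-KI pig (red) or 1 WT pig (blue), and filled symbols where the gene was called. *IGFBP5*, *IGFBP6* and *IGFBP7* stay below 0 under every setting drawn, *IGFBP4* lies on both sides of 0, and *IGFBP7* loses its call in 5 of the 6 fits without a pig.

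The 4 binding proteins were then summed in each pig, to compare the pool of their transcripts. The sum was 267, 200.5 and 215 CPM in UCP1-KI replicates 1 to 3, and 404, 497 and 293 CPM in WT replicates 1 to 3. Each UCP1-KI pig lay below each WT pig. The average of UCP1-KI pigs was 227 ± 35 CPM against a WT mean of 398 ± 102 CPM (SD, n = 3 each). The mean difference on the log2 scale was -0.79 with p = 0.1 in a two-sided exact permutation test, which with 3 pigs against 3 cannot go lower. Dropping any 1 pig left it between -0.99 and -0.61, library size only gave -0.53, and the groups stayed apart in each of these cases. *IGFBP7* held 55.3% to 76.9% of the reads of each pig, so the sum is not evidence apart from that gene. The groups overlapped for *IGFBP7* alone, since WT replicate 3 was at 162 CPM and UCP1-KI replicate 1 at 169.7 CPM, and these pigs parted in the sum with *IGFBP5*, at 85.4 and 24.4 CPM.

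The make-up of this pool was compared as the percent of the summed counts that each gene held, which no library scaling affects. A longer transcript gives more reads, so these are shares of reads and not of molecules. *IGFBP7* held 63.6%, 72.5% and 65.1% of the reads in UCP1-KI replicates 1 to 3 and 76.9%, 68.2% and 55.3% in WT replicates 1 to 3. The exact binomial 95% interval for the last of these was 54.2% to 56.3%, and such intervals cover counting error only. *IGFBP4* held 18.4%, 18.7% and 5.83% in UCP1-KI replicates 1 to 3 against 9.43%, 8.67% and 6.69% in WT replicates 1 to 3. *IGFBP5* held 9.14%, 2.94% and 24.0% in UCP1-KI replicates 1 to 3 against 8.88%, 16.3% and 29.1% in WT replicates 1 to 3. Replicate 3 of each group had the highest share of *IGFBP5* and the lowest share of *IGFBP4*. The share of *IGFBP6* was 6.59% ± 2.01 with the knock-in against 6.84% ± 2.03 without it (SD, n = 3 each). All 4 shares overlapped between the groups, with p values from 0.4 to 1 in two-sided exact permutation tests and 1 for each after Benjamini-Hochberg adjustment over the 4 shares. Without UCP1-KI replicate 3 the groups did not overlap for *IGFBP4*, whose mean share was then 10.3 percentage points higher in UCP1-KI pigs, in place of 6.04.

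**Figure D3:**
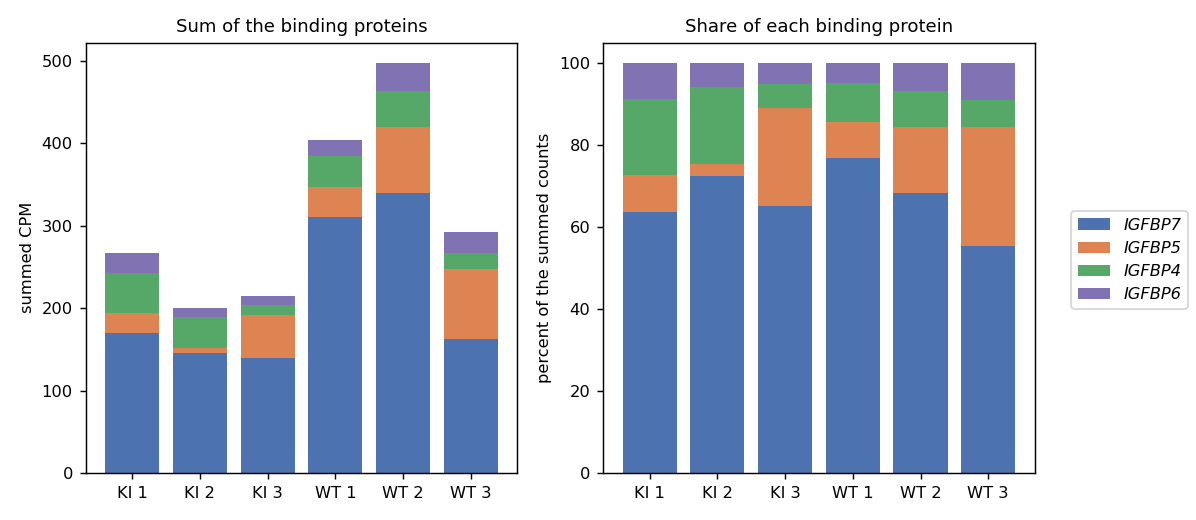
Left, the summed CPM of *IGFBP4*, *IGFBP5*, *IGFBP6* and *IGFBP7* in each pig, stacked by gene (KI is UCP1-KI, with the replicate number), and right, the percent of the summed counts that each gene held. The sums of the UCP1-KI pigs, 200.5 to 267 CPM, lie below those of the WT pigs, 293 to 497 CPM, while the shares of *IGFBP4* and *IGFBP5* vary widely from pig to pig in both groups.

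Of 36 further genes of the pathway, 31 were in the table and 23 passed the filter on low counts. Of these, 3 were called (13.0%, beside 8.19% of all genes tested), with 1 above and 2 below the WT level. With library size only, and likewise without WT replicate 3, 3 were called and all of them were above the WT level. With the replicate number as a block, 6 were called, 4 above and 2 below the WT level. The groups did not overlap for 7 of the 23 genes (30.4%, beside 15.3% of all genes tested). The median log2 fold change of the 23 genes was -0.032.

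Among the other ligands and receptors, the ligand gene *IGF1* had 29 to 66 reads per pig and was at 1.06 ± 0.148 CPM with the knock-in against 1.6 ± 0.736 CPM without it (SD, n = 3 each). Its log2 fold change was -0.59 with a standard error of 0.46 and an unadjusted p of 0.234 in edgeR. The insulin receptor gene *INSR* had a log2 fold change of -0.20 with a 95% interval from -0.83 to 0.43. The insulin gene *INS* had 0 counts in all 6 pigs, as had *IGFBP1* and *IGF2BP1*. A count of 0 allows up to 3 counts, which is between 0.0795 and 0.110 CPM in these libraries, for counting error only.

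*M6PR*, the cation-dependent mannose 6-phosphate receptor that shares the lysosomal enzyme role of *IGF2R* but does not bind IGF2, was lower in UCP1-KI pigs. It was measured at 11.5, 13.5 and 17.9 CPM in UCP1-KI replicates 1 to 3 and at 18.7, 27.0 and 27.4 CPM in WT replicates 1 to 3, without overlap. Its log2 fold change of -0.77 (standard error 0.27) came with an unadjusted p of 0.0243 and an adjusted p of 0.583 in edgeR. *M6PR* was not called with library size only, at -0.47, nor when UCP1-KI replicate 1 or 2 or WT replicate 2 or 3 was left out, where it lay between -0.74 and -0.63.

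Among the proteases of the binding proteins and their inhibitors, *HTRA1*, a secreted serine protease that can cut binding proteins, was lower in UCP1-KI pigs. Its level was 36.7, 24.1 and 43.0 CPM in UCP1-KI replicates 1 to 3 and 50.7, 67.6 and 71.1 CPM in WT replicates 1 to 3. The groups did not overlap, and a log2 fold change of -0.87 (standard error 0.29) came with an unadjusted p of 0.0169 and an adjusted p of 0.583 in edgeR. It was not called with library size only, at -0.60, or without WT replicate 3, at -0.77. *PAPPA*, the gene of PAPP-A, had 6 to 20 reads per pig and a log2 fold change of -0.55 with a 95% interval from -2.10 to 1.0. The stanniocalcins *STC1* and *STC2*, which inhibit PAPP-A, were at -0.52 and 0.20 on the log2 scale, with standard errors of 0.68 and 0.94. The level of *STC2* ranged from 1.06 to 21.0 CPM in UCP1-KI pigs.

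*IGF2BP2*, which binds *IGF2* mRNA among other transcripts, was at 5.92 ± 1.54 CPM with the knock-in against 9.02 ± 1.18 CPM without it (SD, n = 3 each). The groups did not overlap, and a log2 difference of -0.61 (standard error 0.28) came with an unadjusted p of 0.0648 in edgeR, short of the limit. Without UCP1-KI replicate 2 it was called, at -0.84. *CTCF*, the insulator protein gene that acts at the imprinted *IGF2* locus among many other sites, was at 8.71 ± 0.896 CPM with the knock-in against 5.97 ± 0.973 CPM without it (SD, n = 3 each), with an unadjusted p of 0.0661 in edgeR.

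Of 10 adaptor and kinase genes tested downstream of the receptors, 8 had a higher mean in UCP1-KI pigs, where 48.7% of all genes tested did, and 1 was called, a share close to the 8.19% of all genes. This was *PIK3CA*, the gene of a catalytic subunit of phosphoinositide 3-kinase. It was measured at 17.8, 30.6 and 17.6 CPM in UCP1-KI replicates 1 to 3 and at 10.9, 6.43 and 8.51 CPM in WT replicates 1 to 3. Every UCP1-KI pig lay above every WT pig, and a log2 difference of 1.35 (standard error 0.33) had a 95% interval from 0.59 to 2.12. Its unadjusted p was 0.00370 and its adjusted p 0.558 in edgeR, whereas DESeq2 on the same genes gave an adjusted p of 0.0385, and the adjusted p of the other settings ranged from 0.407 to 0.930. *PIK3CA* stayed called whichever pig was dropped, between 1.03 and 1.55. *PIK3R1*, the gene of a regulatory subunit of the same enzyme, had a log2 difference of 0.84 and an unadjusted p of 0.0704 in edgeR. *GRB10*, an imprinted adaptor gene that dampens insulin and IGF1 receptor signals, was at 104 ± 20.2 CPM with the knock-in against 64.2 ± 24.5 CPM without it (SD, n = 3 each). This log2 difference of 0.69 (standard error 0.32) came with an unadjusted p of 0.0667 in edgeR, and it was called with library size only, at 0.93, under the replicate block, at 0.74, and without WT replicate 3, at 1.04.

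**Figure D4:**
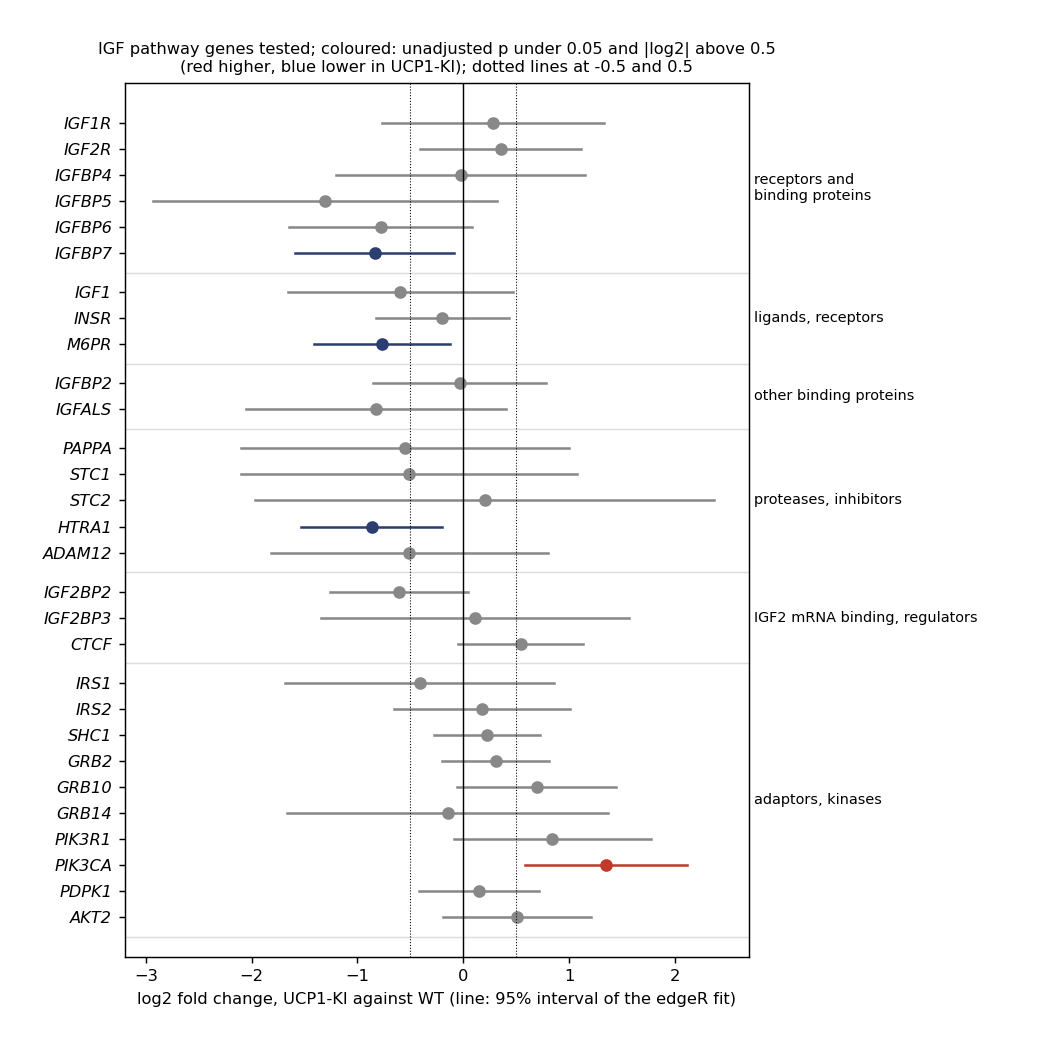
Log2 fold change, UCP1-KI against WT, with its 95% interval for the 6 genes and the 23 other pathway genes tested, grouped by role, with called genes in red (higher in UCP1-KI pigs) or blue (lower). *IGFBP7*, *M6PR* and *HTRA1* are called lower and *PIK3CA* higher, and the intervals of most other genes reach past 0.5 in size on at least one side.

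Marker lists of the cell types that whole muscle holds were summed in the same way. Of 11 fibroblast genes, 10 were in the table, and their sum was between 302 and 485 CPM in UCP1-KI pigs and between 783 and 1262 CPM in WT pigs, without overlap. Of these 10 genes, 8 had a lower mean and 4 were called lower, beside 4.34% of all genes tested, namely *COL1A1*, *COL1A2*, *COL3A1* and *LUM*, while *DCN* (-0.39), *PDGFRA* (-0.08) and *DPT* (0.17) were not. Thus the collagens carried most of the difference in this sum. None of the 10 was at 0 in any pig. Genes of smooth muscle and pericytes were all in the table, and all 8 had a lower mean in UCP1-KI pigs, 1 of them called (*NOTCH3*, -1.02). Their sum was between 343 and 495 CPM in UCP1-KI pigs and between 446 and 954 CPM in WT pigs. WT replicates 1 and 2 were highest in this sum and in the fibroblast sum, as for *IGFBP7*. The sum of 9 endothelial genes was between 416 and 741 CPM in UCP1-KI pigs and between 387 and 712 CPM in WT pigs. Red blood cell genes summed to between 11.4 and 76.0 CPM in UCP1-KI pigs and to between 105 and 180 CPM in WT pigs, with 4 of 6 genes in the table and *SLC4A1* and *AHSP* at 0 in at least 1 pig. Most of this sum was 1 gene, *HBB*, a haemoglobin gene, at 74.8 of 76.0 CPM in UCP1-KI replicate 1 and 177.5 of 180.2 CPM in WT replicate 3. The lists of satellite cells, adipocytes, leukocytes and Schwann cells overlapped between the groups. Markers called higher in UCP1-KI pigs, beside 3.84% of all genes tested, were *TEK* (1.20) of the 9 endothelial genes, *LIPE* (1.12) and *PNPLA2* (0.57) of 7 adipocyte genes tested, and *CD3E* (1.84) of 8 leukocyte genes tested. The other 5 adipocyte genes tested had lower means and were not called, with *ADIPOQ* at -1.26, *FABP4* at -1.22 and *PLIN1* at -1.13. The median of the adipocyte list was -0.80. For *CD3E* the groups overlapped, with 90, 251 and 39 reads in UCP1-KI replicates 1 to 3. Of the 8 leukocyte genes tested, 7 had a higher mean and 1 a lower one, *CD4* (-0.33). *CD8A* (0.57) was not called. The part that these cell types had in the levels of *IGFBP5*, *IGFBP6* and *IGFBP7* was not tested.

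**Figure D5:**
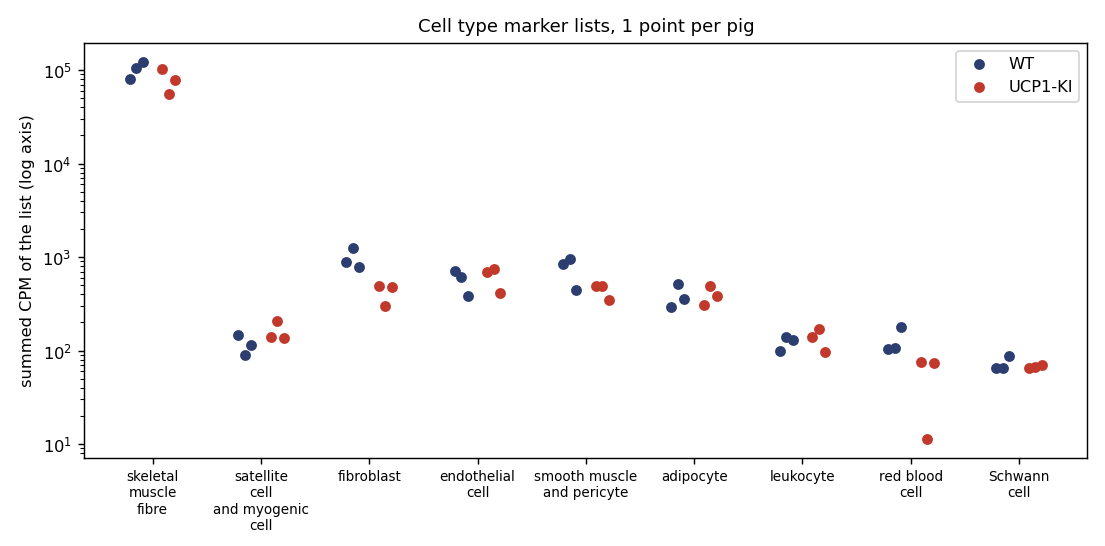
Summed CPM of each marker list on a log axis, with 1 point per pig, WT in blue and UCP1-KI in red. The fibroblast and red blood cell sums do not overlap between the groups, at 302 to 485 against 783 to 1262 CPM and at 11.4 to 76.0 against 105 to 180 CPM, and the other 7 lists overlap.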

How the data were processed

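RNA from the longissimus dorsi was sequenced as paired-end mRNA libraries. The authors trimmed reads with Trimmomatic 0.36, mapped them with HISAT2 2.0, computed expression values with StringTie 1.3.3b and deposited unnormalised counts of reads per Ensembl gene. The submitters' processing notes name the build Sscrofa11.1; the annotation release, the program behind the deposited counts and its use of strand are not given in the sources used here, so reads of overlapping genes cannot be told apart. Symbols came from a table of Ensembl names, which paired 14864 identifiers, and positions from RefSeq by symbol. No sequences were used here.

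Counts were filtered with filterByExpr, scaled with TMM factors and tested with edgeR 4.0.16 in R 4.3.3 by the two-sided quasi-likelihood F test with genotype as the only term, with Benjamini-Hochberg adjustment over all genes tested; DESeq2 1.42.0 was an alternative. A standard error is the log2 fold change divided by the square root of F. Sums, shares and ratios (0.5 added to each count) were compared with exact permutation tests over the 6 pigs. The fit was checked on simulated counts. Within groups, 0 pairs of libraries held identical values. The genes and lists were chosen with earlier results of these data known. All 6 genes with values are named, with every other pathway gene called, the one with the highest mean CPM in each list (*GRB10* and *IGFBP2* among them), and some chosen after their values were seen (*IGF1*, *INSR*, *PAPPA*, *STC1*, *STC2*, *CTCF*, *PIK3R1* and markers). A planned list of genes most like *IGF2*, ratios with *IGF2* and *ZBED6*, and a promoter motif search could not be made. Alternatives were other scalings and filters, DESeq2, a replicate block and leaving out each pig, and 0 value columns were left unused.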

Additional observations from a re-analysis of the deposited data

How the results depend on the processing

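*IGF2R*, the summed binding proteins and the shares of *IGFBP4* and *IGFBP5* kept their direction under each setting run, *IGF2R* was called in none of them although its log2 fold change reached 0.61 with library size only, and the calls of *IGF1R*, *IGFBP4*, *IGFBP5* and *IGFBP6* did not depend on the filter on low counts or on median-of-ratios factors. With library size only, the log2 fold change was 0.19 for *IGFBP4*, 0.27 for *IGFBP2* and -0.59 for *IGFBP7*, the last no longer called. With DESeq2, *IGFBP5* was called at -1.32. With *IGFBP1* and *IGFBP2* added to the pool, the difference in the share of *IGFBP7* was -1.95 percentage points in place of 0.30. The replicate number as a block changed the call of none of the 6 genes, gave 0.044 for *IGFBP2* and called 6 other pathway genes in place of 3. For same-numbered pigs, the correlations of their deviations from the group means were 0.017, 0.070 and 0.23 for replicates 1 to 3. The value of replicate 3 was the highest of any UCP1-KI pig with any WT pig. Of the 3 UCP1-KI pigs, 1 correlated best with its own number. Deviations from a mean of 3 pigs depend on each other, so these values cannot tell whether same-numbered pigs share more than a number.

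With each pig left out, the count of called genes lay between 678 (UCP1-KI replicate 2 dropped) and 1541 (WT replicate 3 dropped), with 718 when WT replicate 2 was dropped, and that of other pathway genes between 2 and 4. The log2 fold change ranged from -0.0097 to 0.76 for *IGF1R*, from -0.42 to 0.36 for *IGFBP4*, from -2.14 to -0.85 for *IGFBP5*, from -1.22 to -0.56 for *IGFBP6*, from -1.10 to -0.64 for *IGFBP7* and from -0.25 to 0.41 for *IGFBP2*. The share differences ranged from 3.86 to 10.3 percentage points for *IGFBP4*, from -12.1 to -0.58 for *IGFBP5* (-6.09 with all pigs, -12.1 and -1.55 when UCP1-KI replicate 3 or 2 was dropped, -10.7 and -0.58 when WT replicate 1 or 3 was dropped), from -1.38 to 0.77 for *IGFBP6* and from -5.45 to 5.35 for *IGFBP7*, and the log2 receptor ratio from -0.54 to 0.29. The causes of these shifts were not tested. The part of depth in the width of the intervals was not tested.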
